A study of Mus musculus with 24 samples.

Results

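The response of floxed control astrocytes to insulin was measured as 4 libraries given insulin against 4 given vehicle, which are 8 of the 24 libraries of the series, chosen by their titles. The cells were primary cortical astrocytes of newborn mice whose insulin receptor gene, Insr, carries floxed alleles, kept to 14 days in vitro. All 8 cultures had received an adenovirus for green fluorescent protein without Cre, so the receptor gene was intact and the controls carried the virus and the floxed alleles too. After infection for 5 days and overnight serum starvation in medium with albumin, insulin was given at 100 nM for 6 h (IRflox insulin) or vehicle was given for the same time (IRflox vehicle). The other groups used for comparison were IRflox with 100 nM IGF-1 for 6 h, and IRKO cultures, whose adenovirus carried Cre fused to green fluorescent protein, with vehicle or 100 nM insulin for 6 h. In IRKO cultures the genotype and the virus go together. Whether replicates were grown as separate cultures is not stated in the labels, and the p-values therefore rest on a spread that may be technical.

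Insulin binds its receptor tyrosine kinase, which phosphorylates insulin receptor substrates and so engages PI3-kinase and AKT. AKT holds FOXO transcription factors out of the nucleus and relieves the brake on the kinase complex mTORC1, which favours protein synthesis and represses lysosomal gene programmes. The same signals raise the activity of SREBP factors, which drive the genes of cholesterol and fatty acid synthesis. Astrocytes make much of the cholesterol of the brain and pass it to neurons on ApoE particles. At high concentrations insulin can also bind the closely related IGF-1 receptor.

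The 8 libraries held 15429688 to 19010986 gene counts, and 15599 genes were abundant enough to test. On the first principal component, with 42.7% of the variance, the vehicle libraries lay between -15.58 and -12.41 and the insulin libraries between 13.71 and 15.09. Of the genes tested, 45.7% changed in edgeR's quasi-likelihood test at a Benjamini-Hochberg adjusted p under 0.05, with 24.3% rising and 21.4% falling (3798 and 3333 genes). These shares are the background for every list of genes below. Which direction held more genes depended on the settings. Scaling by library size alone gave 3490 and 3590, and a mean CPM of at least 1 gave 3401 and 3662. Falls were also more numerous without insulin replicate 3 (3229 and 3346), vehicle replicate 2 (3272 and 3335) or vehicle replicate 4 (3284 and 3291). On the main scale, the median log2 change over all genes tested was 0.001. Most changes were small: the median size was 0.31 on the log2 scale for genes that rose and 0.32 for genes that fell. A change over 1.5-fold was found for 616 genes that rose (3.95% of those tested) and 699 that fell (4.48%), and over 2-fold for 161 and 208. The 4 insulin libraries lay wholly above the 4 vehicle libraries for 20.1% of the genes tested and wholly below them for 18.1%.

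Markers of the astrocytes themselves did not move together. Their summed level was 4592 to 4873 CPM (counts scaled to library size and TMM factor) in the vehicle libraries. It was 4566 to 4854 CPM in the insulin libraries, and the ranges overlapped. Of 12 astrocyte markers tested, 5 rose and 3 fell, all by less than 1.5-fold, and 3 rose without insulin replicate 3 or without vehicle replicate 2. Gfap, the astrocyte intermediate filament gene, was at 700, 645, 680 and 626 CPM with vehicle and 755, 752, 727 and 664 CPM with insulin. The Gfap groups overlapped, and its log2 change was 0.13 (SE 0.045, edgeR adjusted p = 0.0173). Aqp4, the water channel of astrocyte endfeet, had a log2 change of 0.12 (SE 0.034, edgeR adjusted p = 0.00524). The calls of Gfap and Aqp4 were lost under some alternative settings. Over the 12 markers tested, the log2 changes ran from -0.25 to 0.38.

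Markers of some other cell types moved with the treatment. The summed level of 15 microglia markers was 1471 to 1591 CPM with vehicle and 1321 to 1421 CPM with insulin, without overlap, and 9 of the 15 fell, none by over 1.5-fold. Among them C1qa, a complement subunit gene, had a log2 change of -0.33 (SE 0.056, edgeR adjusted p = 4.27e-06). The sum over the oligodendrocyte lineage list was 314.1 to 340.7 CPM with vehicle and 380.2 to 422.5 CPM with insulin, but the list was split: of 10 genes tested, 3 rose and 2 fell, with a median log2 change of -0.07. Olig1 and Olig2, transcription factor genes of that lineage that make up much of the sum, changed by 0.54 (SE 0.05, edgeR adjusted p = 4.22e-12) and 0.59 (SE 0.055, edgeR adjusted p = 5.67e-12). Bmp4, a growth factor gene, changed by -1.25 (SE 0.15, edgeR adjusted p = 7.65e-09) and Mbp, a myelin protein gene, by -0.41 (SE 0.13, edgeR adjusted p = 0.00945). The sum over the neuron list was 150.4 to 153.9 CPM with vehicle and 173.4 to 185.5 CPM with insulin. Of 8 neuron markers tested, 4 rose, 3 of them by over 1.5-fold, and 1 fell. Tubb3, a neuronal tubulin gene that is also in the tubulin list below, went from 4.13 ± 0.821 to 9.31 ± 0.877 CPM (log2 change 1.17, SE 0.13, edgeR adjusted p = 1.03e-09), and the other 2 rises over 1.5-fold were those of Gad2 and Nefm, at means of at most 2.08 CPM. In bulk RNA, fewer cells of a type and less RNA per cell cannot be told apart, and the part of these cells in the results below was not tested.

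Transcripts typical of liver were present in the insulin libraries. Alb, the albumin gene, had 2, 2, 0 and 2 counts in the vehicle libraries and 153, 101, 118 and 50 counts in the insulin libraries. Of 17 liver genes listed, 5 were abundant enough to test, and 3 of these rose. Alb and Apob were far below the minimum count of 10 in the floxed vehicle libraries. They passed the filter only through other libraries, so rises among the tested liver genes were favoured in advance and carry no weight as a count. Of the 11 genes that rose over 4-fold, 10 were of very low abundance, and Alb, Apob, Ttr, Gc and Apoa4 were among them (Gc and Apoa4 named after their values were seen). In the other groups Alb varied between libraries. It had 0, 0, 0 and 112 counts in IRKO libraries with vehicle, 133, 1, 86 and 60 with insulin, and 22, 1, 57 and 1 in floxed control libraries with IGF-1, so a single library held all Alb counts of the IRKO vehicle group. The part of this material in the results below was not tested.

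**Figure D1:**
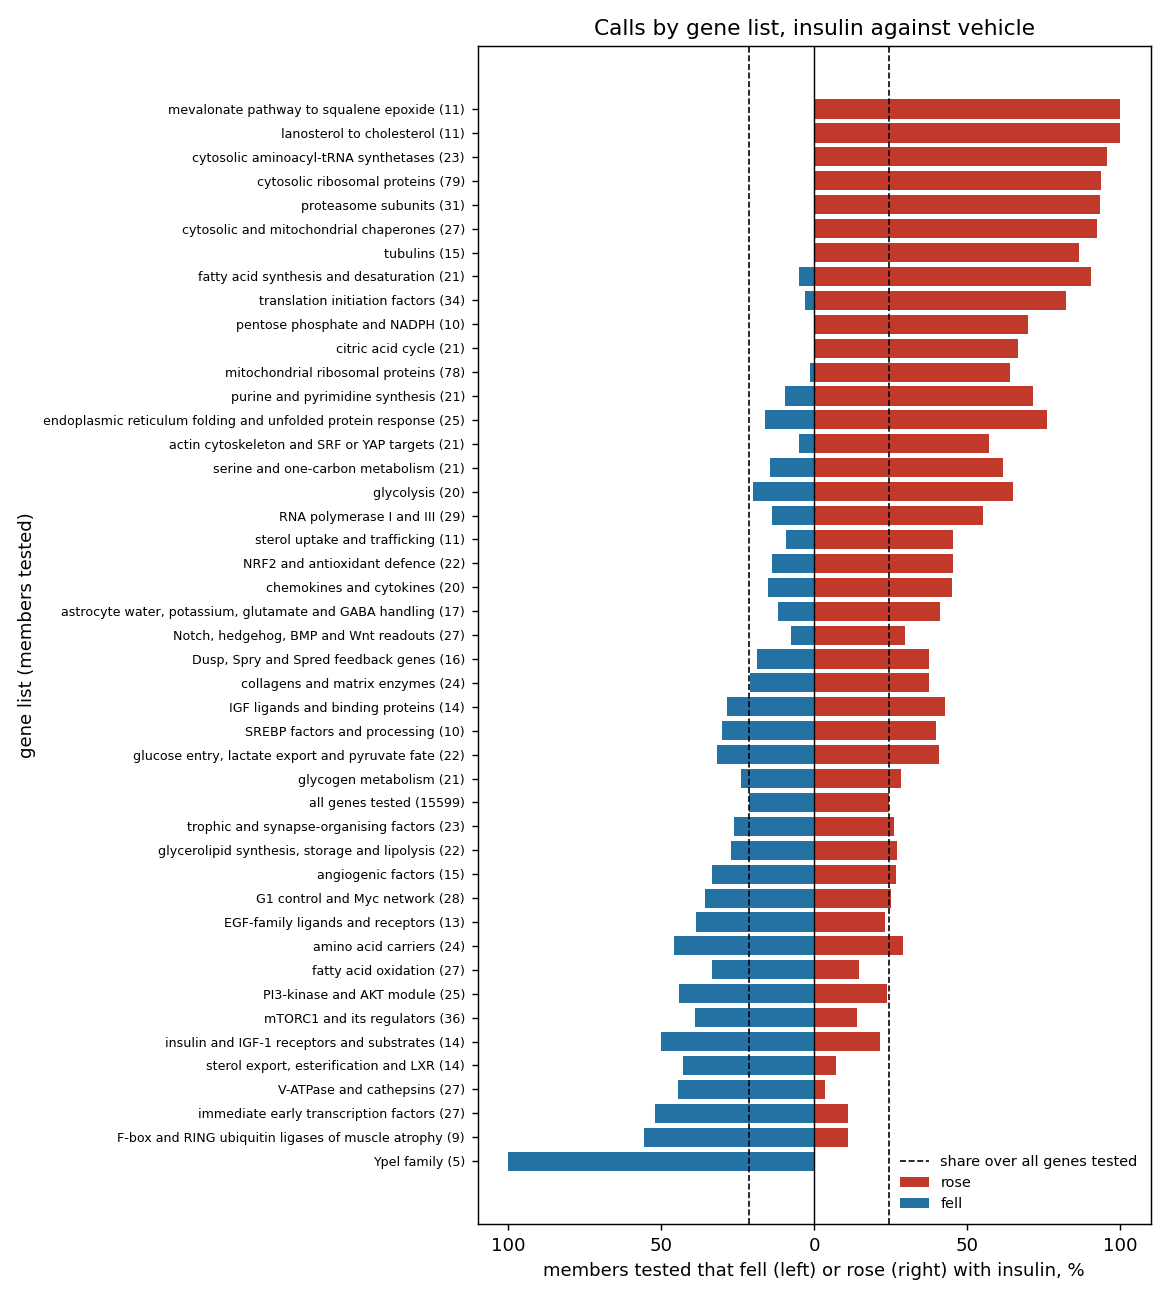
Share of the tested members of each gene list that rose (right, red) or fell (left, blue) with insulin, in percent, with the number of members tested in brackets and the shares over all genes tested as dashed lines. The lists of mevalonate and cholesterol synthesis genes rose as a whole (11 of 11 each), and all 5 Ypel genes fell.

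Among receptors and substrates, 3 of 14 genes rose and 7 fell, with a median log2 change of -0.10. The IGF-1 receptor gene, Igf1r (chr7:67952827-68233668, plus strand, mm10), fell most. Its level was 192, 192, 188 and 193 CPM with vehicle and 91.8, 86, 85 and 90.6 CPM with insulin. The groups were far apart, and the log2 change was -1.11 (SE 0.04, edgeR adjusted p = 4.69e-25). Insr itself was at 60, 66.8, 58.8 and 60.6 CPM with vehicle and at 52.6, 47.5, 50.2 and 48.1 CPM with insulin, also without overlap. Its log2 change was -0.31 (SE 0.054, edgeR adjusted p = 7.24e-06). Of the substrate genes, Irs2 changed by -0.21 (SE 0.038, edgeR adjusted p = 1.91e-05) and Irs1 by -0.35 (SE 0.038, edgeR adjusted p = 2.52e-10), where 30.9% of the Irs1 exon length is shared with another gene, so its value is uncertain.

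In the PI3-kinase and AKT module, 6 of 25 genes rose and 11 fell. Pik3ip1, which encodes an inhibitor of PI3-kinase, fell from 122 ± 2.72 to 53.7 ± 4.04 CPM (SD, n = 4 each; log2 change -1.19, SE 0.05, edgeR adjusted p = 1.23e-22). Of the PI3-kinase subunits, the regulatory gene Pik3r1 rose from 168, 176, 179.6 and 182 CPM to 252, 259, 256 and 263 CPM, whereas the catalytic gene Pik3ca fell from 112, 117, 116 and 119 CPM to 72.5, 66.6, 81.2 and 69.7 CPM. The log2 changes were 0.54 (SE 0.039) for the first and -0.68 (SE 0.044) for the second, with separated groups for both. Akt1 rose from 216 ± 6.51 to 255 ± 7.32 CPM (log2 change 0.24), whereas Akt2 moved by -0.11. Of 36 mTORC1 genes, 5 rose and 14 fell, 6 of the latter by over 1.5-fold. Castor2, Sesn3 and Rragd act in the response of mTORC1 to amino acids. Castor2, a sensor gene, changed by -0.95 (SE 0.06), Sesn3, a sestrin gene, by -0.92 (SE 0.043) and Rragd, a Rag GTPase gene of the lysosome, by -0.91 (SE 0.054), each with no overlap between the groups.

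Of the FOXO transcripts, Foxo3 fell and Foxo1 and Foxo6 rose, with Foxo6 at a low level. Foxo3 changed by -0.29 (SE 0.038, edgeR adjusted p = 2.37e-08) and Foxo1 by 0.18 (SE 0.057, edgeR adjusted p = 0.00902). Foxo6, at 1.67 to 2.23 CPM with vehicle and 2.54 to 3.31 CPM with insulin, changed by 0.59 (SE 0.22, edgeR adjusted p = 0.0247), just over 1.5-fold and without overlap. Tfeb, a master gene of lysosome transcription, did not pass the test (log2 change -0.17, SE 0.093, edgeR adjusted p = 0.124). Of 27 V-ATPase and cathepsin genes, which acidify the lysosome and digest its cargo, 1 rose and 12 fell, none by over 1.5-fold.

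The largest fall was that of Fbxo32 (chr15:58175879-58214932, minus strand, mm10), which encodes an F-box ubiquitin ligase first known from muscle atrophy. Its level was 44, 45.7, 40.2 and 45.3 CPM with vehicle and 5.21, 4.14, 5.94 and 3.54 CPM with insulin. Every insulin library lay far below every vehicle library (log2 change -3.22, SE 0.12, edgeR adjusted p = 1.15e-24). Among 9 tested genes of that list, 5 fell and 1 rose, but only Fbxo32 changed by over 1.5-fold. All 5 Ypel genes, small zinc-binding proteins of poorly known function, fell, with a median log2 change of -0.90. Ypel3 was at 79.3, 77.9, 80.7 and 77.4 CPM with vehicle and 16.9, 15, 12.8 and 15.6 CPM with insulin. The Ypel3 groups were widely separated, with a log2 change of -2.38 (SE 0.084, edgeR adjusted p = 2.87e-25).

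Crebrf, which encodes a regulator of the CREB3 family, fell from 128, 134, 121 and 141 CPM to 30.8, 32.1, 34.5 and 29.3 CPM (log2 change -2.05, SE 0.061, edgeR adjusted p = 1.99e-27). Eps8l1, an actin regulator gene, changed from 8.27, 9.4, 8.81 and 7.02 CPM to 2.42, 2.4, 2.97 and 1.68 CPM. Neither gene had overlapping groups. The 150 bases before the start are shown for genes among the largest falls that hold a match within them, on either strand. Matches sought were a FOXO element (letters GTAAACA), an insulin response sequence (CAAAACA), an E-box (CACGTG) or the longer CLEAR element (TCACGTGAC), which contains an E-box. Fbxo32 and Pappa, also among the largest falls, had no promoter entry and could not be searched. Ypel3, Pdk4, Cyren and C530044C16Rik, among the largest falls too, had an entry but held none of these letters within 250 bases. Crebrf and Tmem140 have 1 promoter entry each. Eps8l1 has 3, for different starts, and the stretch shown is the only one of the 3 with a match. The stretches come from RefSeq on GRCm38.p6, are written 5′ to 3′ in the direction of the gene, and have the matching letters in capitals.
Crebrf, chr17:26715500-26715649, plus strand: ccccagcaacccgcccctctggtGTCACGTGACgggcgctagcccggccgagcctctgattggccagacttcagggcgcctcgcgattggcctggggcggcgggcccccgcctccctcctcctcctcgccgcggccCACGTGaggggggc
Eps8l1, chr7:4460547-4460696, plus strand: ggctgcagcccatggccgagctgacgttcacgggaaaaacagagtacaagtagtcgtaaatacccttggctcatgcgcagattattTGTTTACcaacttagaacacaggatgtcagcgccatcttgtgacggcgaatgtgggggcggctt
Tmem140, chr6:34862996-34863145, plus strand: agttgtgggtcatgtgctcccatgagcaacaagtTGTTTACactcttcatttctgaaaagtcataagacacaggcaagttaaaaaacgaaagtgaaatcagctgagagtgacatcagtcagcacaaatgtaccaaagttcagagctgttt
Crebrf held E-box letters at 125 and 14 bases before the start, and those at 125 lay inside a CLEAR element. Eps8l1 and Tmem140 each held a FOXO element on the reverse strand, at 64 and 116 bases. Over 250 bases before the start, a FOXO element was found in 2.23% of the 14867 promoters of all genes tested that had an entry, 4.1% of those of genes that rose over 2-fold and 3.74% of those of genes that fell over 2-fold. The insulin response sequence was in 3.76%, 4.1% and 8.56%. For the E-box the shares were 7.87%, 10.7% and 9.09%, and for the CLEAR element 1.11%, 0% and 1.6%. Galnt15, also among the largest falls, held an insulin response sequence within the 250 bases but not within the last 150. Ngef, among the largest rises, held a FOXO element within the 250 bases. A match is a description of letters and not of a binding site. Tmem140, a membrane protein gene, was at 35 to 40.9 CPM with vehicle and 7.61 to 9.79 CPM with insulin (log2 change -2.15, SE 0.081), but it shares 37% of its exon length with Cyren, which fell too, so the values of both are uncertain.

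**Figure D2:**
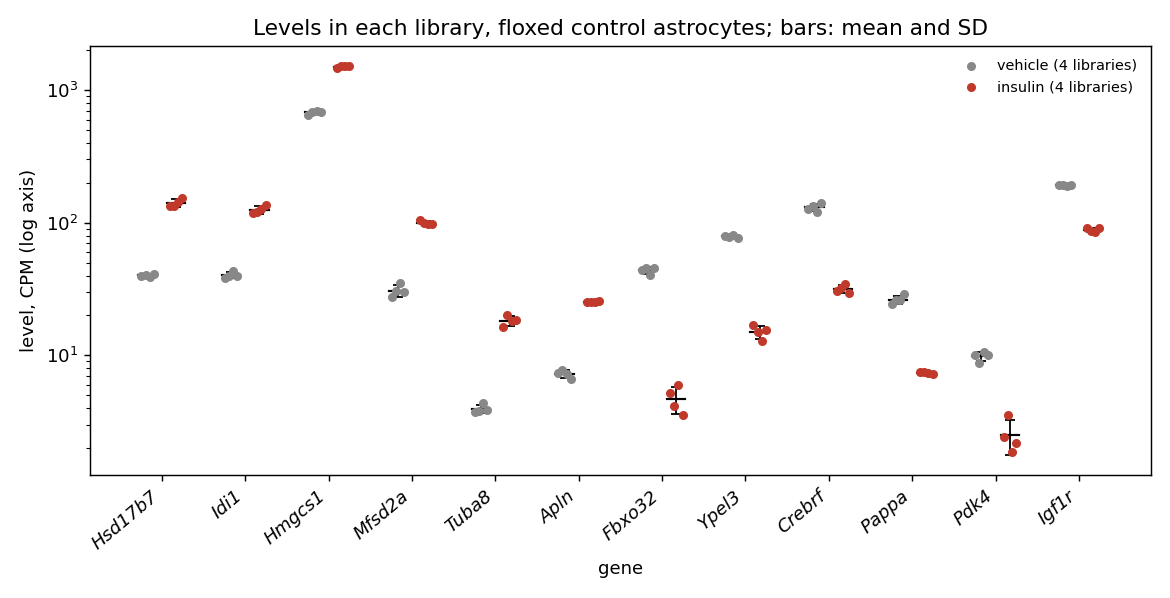
Level of 12 genes in each floxed control library, in CPM on a log axis, with vehicle in grey, insulin in red, and black bars for the mean and SD of 4 libraries. The groups do not overlap for any of the 12 genes, and Fbxo32 falls from above 40 CPM to below 6 CPM.

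Genes of cholesterol synthesis rose together. All 11 tested genes from acetyl-CoA to squalene epoxide rose, with a median log2 change of 1.15, and all 11 from lanosterol to cholesterol rose, with a median of 1.23. Summed over the first list, the level was 1416 to 1565 CPM with vehicle and 3267 to 3402 CPM with insulin. Hmgcs1 encodes the synthase that makes HMG-CoA. It was at 650.5, 679.8, 699.5 and 682 CPM with vehicle and 1463, 1515, 1522 and 1524 CPM with insulin, so the groups were far apart (log2 change 1.15, SE 0.036, edgeR adjusted p = 5.99e-27). Hsd17b7, which encodes a sterol 3-ketoreductase, had the largest change of both lists, 1.81 (SE 0.056, edgeR adjusted p = 4.61e-27). Its level was 39.8, 40.5, 39.2 and 40.9 CPM with vehicle and 133, 132.8, 142 and 153.5 CPM with insulin. Idi1, the isopentenyl diphosphate isomerase gene, followed with 1.63 (SE 0.057). The smallest changes were those of Ggps1, which makes the side branch to geranylgeranyl diphosphate (0.17), and Ebp, an isomerase gene (0.35).

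The 4 sterol synthesis genes with the largest changes that have a promoter entry are shown because the CCAAT box, letters CCAAT on either strand, was common among these promoters. The stretches are the 150 bases before the start from RefSeq on GRCm38.p6, 5′ to 3′ in the direction of the gene, with the CCAAT letters, or ATTGG for the reverse strand, in capitals.
Hsd17b7, chr1:169969206-169969355, minus strand: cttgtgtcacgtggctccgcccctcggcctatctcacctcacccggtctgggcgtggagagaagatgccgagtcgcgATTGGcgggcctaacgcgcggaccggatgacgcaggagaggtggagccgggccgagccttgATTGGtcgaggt
Idi1, chr13:8885456-8885605, plus strand: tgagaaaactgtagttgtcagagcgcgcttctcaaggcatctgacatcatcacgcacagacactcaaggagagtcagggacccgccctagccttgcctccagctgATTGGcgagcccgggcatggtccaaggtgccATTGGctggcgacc
Lss, chr10:76531455-76531604, plus strand: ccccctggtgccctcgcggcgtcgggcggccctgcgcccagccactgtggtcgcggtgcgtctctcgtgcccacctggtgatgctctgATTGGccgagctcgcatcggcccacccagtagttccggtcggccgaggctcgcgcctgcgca
Msmo1, chr8:64733579-64733728, minus strand: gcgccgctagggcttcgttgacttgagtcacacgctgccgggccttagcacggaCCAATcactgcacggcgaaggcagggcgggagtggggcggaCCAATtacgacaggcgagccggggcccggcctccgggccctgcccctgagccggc
Over 250 bases, a CCAAT box was found in 80% of 20 promoters of the sterol lists (16 of 17 genes), against 34.8% of the promoters of all genes tested, 39.3% of those of genes that rose over 2-fold and 33.2% of those of genes that fell over 2-fold. The letters ATCACCCCA of a sterol regulatory element were found in none of the 20, and in 0.168% of all promoters. The looser form TCACNCCAC was in 5% of the 20 and 1.02% of all.

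**Figure D3:**
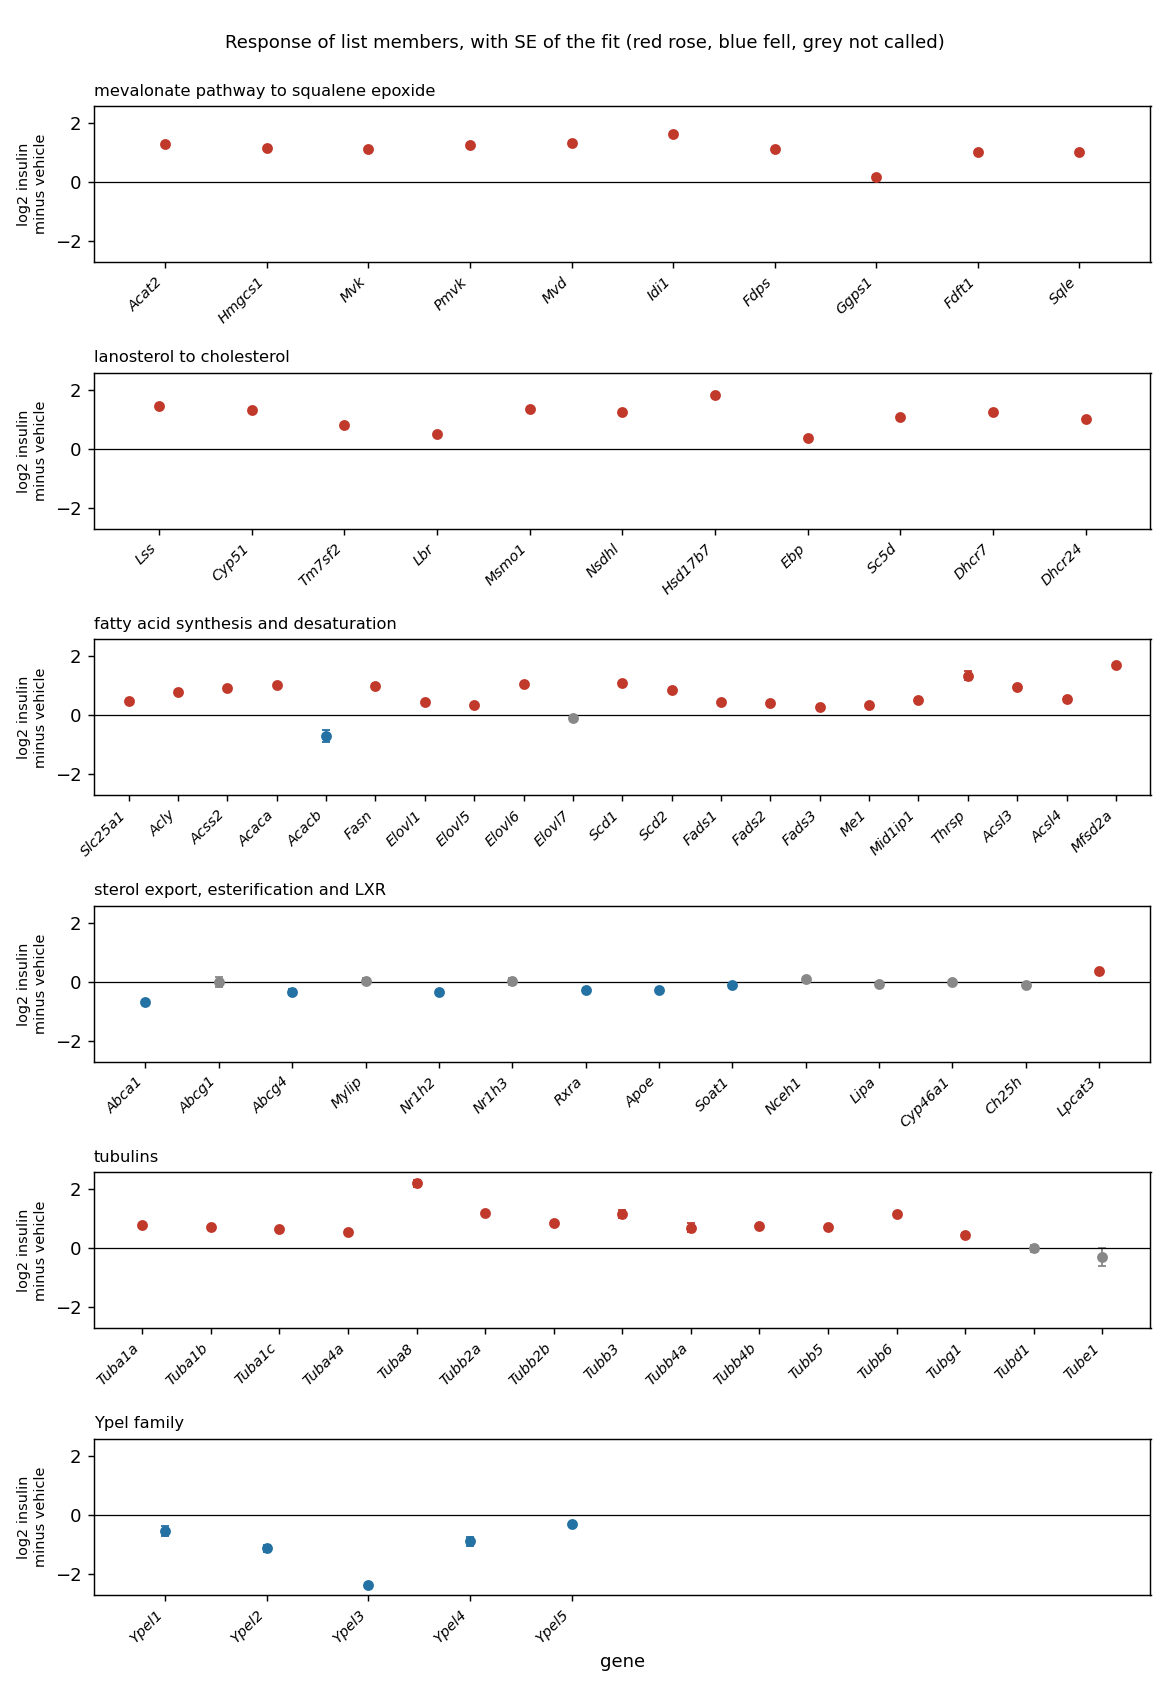
Log2 change with insulin of members of 6 gene lists, with the SE of the fit (red rose, blue fell, grey did not pass the test). The sterol synthesis genes shown lie above 0, with Ggps1 and Ebp lowest, and Ypel3 lies lowest of the Ypel genes.

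The genes that control SREBP factors moved in different directions. Srebf1 rose from 171 ± 11.9 to 239 ± 10.2 CPM (log2 change 0.48, SE 0.043) and Srebf2 from 330 ± 12.8 to 427 ± 6.61 CPM (0.37, SE 0.036). Insig1 and Insig2 encode proteins that retain SREBP in the endoplasmic reticulum. Insig1 rose from 136, 135, 145 and 142 CPM to 280.9, 281, 264 and 288 CPM, whereas Insig2 fell from 65.7, 69.7, 72 and 74.2 CPM to 42, 40.1, 44.5 and 44.6 CPM. The log2 changes were 1.00 (SE 0.041) and -0.72 (SE 0.056), and neither gene had overlapping groups. Mbtps1, the protease gene that makes the first cut in SREBP, changed by -0.47 (SE 0.036, edgeR adjusted p = 3.6e-14).

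Sterol uptake rose in part and export fell in part. Of 11 uptake and trafficking genes, 5 rose and 1 fell (2 without vehicle replicate 3). Stard4, a cytosolic sterol carrier gene, rose from 99.7, 100.2, 103 and 106 CPM to 230.6, 227, 231 and 241 CPM, without overlap (log2 change 1.18, SE 0.04, edgeR adjusted p = 7.96e-26). Of 14 export, esterification and LXR genes, 1 rose (2 without insulin replicate 1) and 6 fell. Abca1, the cholesterol efflux pump gene, was at 1442, 1400, 1267 and 1391 CPM with vehicle and 837, 819, 905 and 864 CPM with insulin, without overlap (log2 change -0.68, SE 0.041, edgeR adjusted p = 1.21e-17). Apoe changed by -0.27 (SE 0.05, edgeR adjusted p = 2.74e-05). Of 21 fatty acid genes, 19 rose and 1 fell. Mfsd2a, a lysophospholipid carrier gene, rose from 30.8 ± 3.12 to 99.7 ± 2.97 CPM (log2 change 1.69, SE 0.053). Scd2, a desaturase gene of brain, rose from 2018 ± 49.5 to 3646 ± 36.7 CPM (0.85, SE 0.031). The one fall was Acacb, an acetyl-CoA carboxylase of mitochondria, at -0.71 (SE 0.2, edgeR adjusted p = 0.00313), with overlapping groups of 3.98 to 6.77 CPM and 2.76 to 4.24 CPM.

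Tubulins rose as a family. Of 15 tested genes, 13 rose, 11 of them by over 1.5-fold, and the median log2 change was 0.72. Their summed level was 2341 to 2521 CPM with vehicle and 4211 to 4344 CPM with insulin. Tuba8 (chr6:121210696-121226854, plus strand, mm10) had the largest change, from 3.73, 3.84, 4.35 and 3.88 CPM to 16.3, 20.2, 18.1 and 18.4 CPM (log2 change 2.20, SE 0.12, edgeR adjusted p = 6.44e-19). Tubb2a rose from 218, 217, 242 and 214 CPM to 509.8, 524, 489 and 515 CPM, also without overlap. Tubd1 and Tube1, which encode tubulins of centrioles, did not pass the test. In the list of actin cytoskeleton genes and targets of the factors SRF or YAP, 12 of 21 tested genes rose and 1 fell. The fall was that of Ccn2, a matricellular factor gene, at -1.02. Among the rises were Ccn1, a gene of the same family as Ccn2, at 0.50 (SE 0.046) and Cnn1 at 0.97 (SE 0.066).

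Genes for making and folding proteins rose widely, most of them by less than 1.5-fold. Of 79 cytosolic ribosomal protein genes, 74 rose and none fell, with a median log2 change of 0.32, and 2 of them changed by over 1.5-fold. Of 78 mitochondrial ribosomal protein genes, 50 rose and 1 fell. Among cytosolic aminoacyl-tRNA synthetases and their partners, 22 of 23 rose, 5 of them by over 1.5-fold, and none fell, and Eef1e1, a scaffold gene of the synthetase complex, changed most (1.04, SE 0.066). Of 34 initiation factor genes, 28 rose and 1 fell. Among RNA polymerase I and III genes, 16 of 29 rose, 5 of them by over 1.5-fold, and 4 fell. Maf1, a repressor of polymerase III, changed by -0.74 (SE 0.049) from 87.7, 91.1, 91.4 and 87.1 CPM to 54.3, 55.2, 51.2 and 52.5 CPM, with no overlap. Of 31 proteasome genes 29 rose, none by over 1.5-fold, and of 27 chaperone genes 25 rose, 5 by over 1.5-fold, with no falls in either list. In the list of endoplasmic reticulum folding and the unfolded protein response, 19 of 25 rose, 6 of them by over 1.5-fold, and 4 fell (2 without insulin replicate 1 or vehicle replicate 4). Hspa5, the chaperone gene of the endoplasmic reticulum, rose from 737 ± 44 to 1244 ± 21.9 CPM (log2 change 0.75, SE 0.037). Srm, the spermidine synthase gene, rose from 33.2, 30, 33.8 and 31.9 CPM to 82, 81.8, 87.4 and 92 CPM (1.41, SE 0.061).

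Nucleotide and one-carbon genes rose in most cases, with 15 of 21 purine and pyrimidine genes and 13 of 21 serine and one-carbon genes rising and 2 and 3 falling. Impdh2, the rate-limiting gene of guanine nucleotide synthesis, rose from 58.5 ± 3.15 to 105 ± 4.53 CPM (log2 change 0.84, SE 0.047). Of 24 amino acid carrier genes, 7 rose and 11 fell, and Slc7a1, a cationic amino acid carrier, rose by 0.83 (SE 0.058). Of 20 glycolysis genes 13 rose and 4 fell, and of 21 citric acid cycle genes 14 rose and none fell, with no change over 1.5-fold in either list. Eno2, the enolase gene typical of neurons, had the largest change among the glycolysis genes, from 100.1 ± 4.32 to 70.7 ± 2.59 CPM (log2 change -0.50, SE 0.046, edgeR adjusted p = 3.61e-12). Pdk4 and Pdk2 encode kinases that inhibit pyruvate dehydrogenase. Pdk4 fell from 9.99, 8.83, 10.6 and 10.1 CPM to 2.42, 3.54, 1.86 and 2.19 CPM (log2 change -1.98, SE 0.17, edgeR adjusted p = 3.12e-13), and Pdk2 changed by -1.05 (SE 0.064). Both had separated groups. Of 27 fatty acid oxidation genes, 4 rose and 9 fell.

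Among IGF ligands and binding proteins, 6 of 14 genes rose and 4 fell. Pappa, a protease gene that frees IGFs from their binding proteins, was at 24.4, 26.1, 26.1 and 28.9 CPM with vehicle and 7.51, 7.45, 7.36 and 7.19 CPM with insulin. All insulin values were far lower (log2 change -1.84, SE 0.09, edgeR adjusted p = 1.44e-20). Stc1, an inhibitor of that protease, had 1.01 to 1.37 CPM with vehicle and 3.2 to 4.91 CPM with insulin (log2 change 1.76, SE 0.2); it was named after its values were seen. Apln, a peptide hormone gene of vessel growth, rose from 7.35, 7.74, 7.27 and 6.62 CPM to 25.4, 25.5, 25.3 and 25.7 CPM (1.81, SE 0.082). Tnfrsf12a, a cytokine receptor gene, rose from 22.2 ± 2.38 to 53 ± 7.45 CPM (1.25, SE 0.096).

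At 6 h, 3 of 27 immediate early genes rose and 14 fell, with a median log2 change of -0.24. Klf15, a factor gene of fasting metabolism, changed by -1.01 (SE 0.094) and Myc by -0.37 (SE 0.065, edgeR adjusted p = 7.35e-06). In the cell cycle and Myc list, 7 of 28 genes rose and 10 fell. Ccnd2, a cyclin gene of G1, rose from 286, 288, 303 and 293 CPM to 469, 473, 479.5 and 469 CPM (log2 change 0.69, SE 0.033). Rbl2, which encodes a pocket protein that restrains the cell cycle, fell from 89.3 ± 2.89 to 47.4 ± 2.84 CPM (-0.91, SE 0.047). Neither gene had overlapping groups.

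Ligand and feedback genes of growth factor signalling moved in both directions. Over all genes tested, 24.3% rose and 21.4% fell, and whether these small lists differ from those shares was not tested. Of 16 Dusp, Spry and Spred genes, which restrain MAP kinase signalling, 6 rose and 3 fell. Spry4 rose from 25, 25.7, 26.8 and 23.1 CPM to 38.3, 37.7, 39 and 39.6 CPM (log2 change 0.62, SE 0.061), whereas Dusp1, a phosphatase gene, changed by -0.68 (SE 0.089). Of 13 EGF-family genes, 3 rose and 5 fell, among them Erbb2, a receptor gene, at -0.57 (SE 0.059) and Tgfa, a ligand gene, at -0.53 (SE 0.072). Of 27 Notch, hedgehog, BMP and Wnt genes, 8 rose and 2 fell. Wnt7a, a Wnt ligand gene, rose from 20, 19.6, 22.2 and 20 CPM to 34.7, 30.8, 34.4 and 30.3 CPM (0.67, SE 0.064).

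Among genes of astrocyte work in the tissue, most of those over 1.5-fold were in the chemokine and cytokine list, which also holds TNF receptor genes. Of 17 genes for water, potassium, glutamate and GABA handling, 7 rose, 1 of them by over 1.5-fold, and 2 fell. Kcnj10, the main potassium channel gene of astrocytes, rose from 226, 199.8, 172 and 195 CPM to 280.5, 265, 275 and 249 CPM (log2 change 0.43, SE 0.053), with no overlap between groups. Of 23 trophic and synapse-organising genes, 6 rose and 6 fell, 1 of the latter by over 1.5-fold, with Thbs2, a thrombospondin gene, at 0.48 (SE 0.05) and Megf10, an engulfment receptor gene, at -0.67 (SE 0.064). Of 20 genes in the chemokine and cytokine list, 9 rose, 5 of them by over 1.5-fold, and 3 fell. The summed level of the list overlapped, at 10880 to 13240 CPM with vehicle and 12390 to 13650 CPM with insulin. Ccl7, a monocyte chemokine gene, rose from 117, 142, 170.1 and 145 CPM to 219, 259, 272 and 298 CPM (0.87, SE 0.073), and the groups were separate although the vehicle libraries varied widely. Of 22 antioxidant genes 10 rose and 3 fell, and of 24 collagen and matrix genes 9 rose and 5 fell, none by over 1.5-fold in either list.

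Of 22 glycerolipid genes, 6 rose and 6 fell (3 without vehicle replicate 1), and of 21 glycogen genes, 6 rose and 5 fell (3 without vehicle replicate 1). These shares are near those over all genes tested. Pcyt2, a gene of phosphatidylethanolamine synthesis, changed by 0.81 (SE 0.047), and Plin3, a lipid droplet coat gene, by -0.76 (SE 0.055). Of 22 genes for glucose entry, lactate export and pyruvate fate, 9 rose and 7 fell, and Slc16a1, a lactate carrier gene, rose from 333, 310.2, 358 and 339 CPM to 500.2, 471, 487 and 504 CPM (0.55, SE 0.039).

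IRKO cultures gave the same comparison with none of the same libraries. Insr reads did not disappear in them: the level was 39.7, 37.7, 40.5 and 43.7 CPM with vehicle and 26.6, 29.6, 29 and 30.6 CPM with insulin. Every IRKO library lay below every floxed control library of the same treatment. Counts over the whole gene do not show how complete the deletion was, and how far the likeness of the responses depends on it was not tested. In IRKO astrocytes, 24.7% of genes rose with insulin and 21.7% fell. Of the 161 genes that rose over 2-fold in floxed control cells, 125 (77.64%) also rose in IRKO cells, and of the 208 that fell, 152 (73.08%) also fell, with none called in the opposite direction. These genes were chosen by their floxed control values. For Hsd17b7 the log2 change was 1.81 in floxed control and 1.72 in IRKO cells, a difference of 0.09 (SE 0.078). For Fbxo32 it was -3.22 and -3.02, a difference of -0.21 (SE 0.18), and for Igf1r -1.11 and -1.09, a difference of -0.02 (SE 0.056). In edgeR's test of the difference between genotypes, 0 of 15599 genes passed, with a lowest adjusted p of 0.276, while 838 had an unadjusted p under 0.05. DESeq2 called 0 as well, with 795 at an unadjusted p under 0.05. Where no gene differs, chance alone gives an unadjusted p under 0.05 in a share of about 0.05 of the genes. A p that misses the threshold does not show that the responses are alike.

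**Figure D4:**
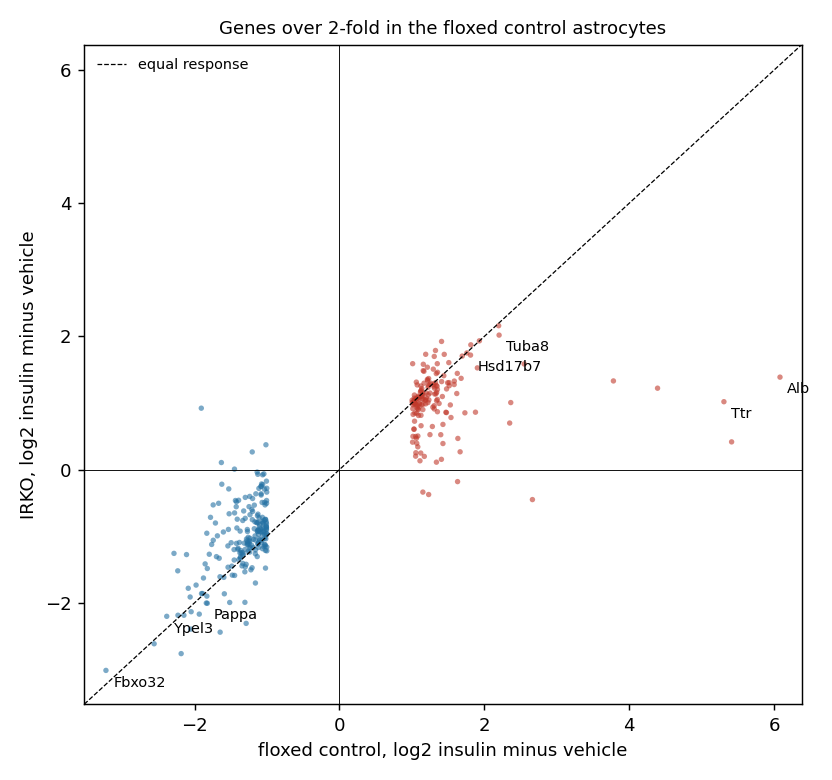
Log2 change with insulin in floxed control cells (horizontal) against IRKO cells (vertical) for the genes that changed over 2-fold in floxed control cells, with equal response as a dashed line. Fbxo32, Ypel3, Pappa, Hsd17b7 and Tuba8 lie near the line, and Alb and Ttr lie far to its right: both were near 0 counts in floxed vehicle libraries, so their fitted values depend on the prior count.

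Insulin and IGF-1 were compared directly in floxed control cells, at the same dose and time, over 4 libraries each. In this comparison 404 of 15599 genes differed (2.59%), 233 higher with insulin (1.49%) and 171 lower (1.1%). The higher count was 155, 152 and 128 without IGF-1 replicates 1, 2 and 4, and without insulin replicate 2 the counts were 136 and 106. Shh, the hedgehog ligand gene, was at 13 ± 2.36 CPM with insulin and 22.8 ± 2.47 CPM with IGF-1 (log2 difference -0.81, SE 0.11, edgeR adjusted p = 1.04e-05). Akap12, a kinase anchor gene, was at 205 ± 4.31 and 304 ± 16.2 CPM (-0.57, SE 0.041, edgeR adjusted p = 8.62e-13), and Rhbdl3, a rhomboid-like gene, at 20.6 ± 1.82 and 13.2 ± 0.473 CPM (0.64, SE 0.081, edgeR adjusted p = 2.68e-06). Some insulin-responsive genes differed too. Hsd17b7, which rose with insulin, was lower with insulin than with IGF-1 (difference -0.35, SE 0.05, edgeR adjusted p = 2.36e-05). Pik3ip1, which fell with insulin, was higher than with IGF-1 (0.29, SE 0.054, edgeR adjusted p = 0.000772). Both thus lay nearer their vehicle level with insulin than with IGF-1. Other genes lay further from it with insulin. Kcnj10, which rose with insulin, was higher than with IGF-1 (0.33, SE 0.053, edgeR adjusted p = 0.00014). Igf1r, which fell with insulin, was lower than with IGF-1 (-0.16, SE 0.041, edgeR adjusted p = 0.0177). How many insulin-responsive genes lay each way was not counted. The median difference was -0.135 over the mevalonate list and -0.142 over the lanosterol list, where 4 and 5 of 11 genes passed. For Fbxo32 the difference was 0.41 (SE 0.17, edgeR adjusted p = 0.233) and for Ypel3 0.13 (SE 0.1, edgeR adjusted p = 0.613), neither of which passed the test.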

How the data were processed

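The authors deposited unnormalized read counts for each gene, with a separate file for every library. Which program counted the reads, and on which annotation release, is not given in the sources used here; the submitters' processing notes list STAR 2.7.7a, R 4.0.4, edgeR, DESeq2 and mm10, with no role for any. Per the labels, the sequenced poly-A RNA carried no strand information, so reads of overlapping genes cannot be separated. Lines that name no gene were dropped.

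edgeR 4.0.16 (R 4.3.3) was run on the counts. Its expression filter (minimum count 10, minimum total 15) kept 15599 of 32719 genes. TMM factors were 0.988 to 1.014 in the 8 libraries, and a single quasi-likelihood model with a mean for each group took in all 24. The threshold was 0.05 on p-values adjusted by Benjamini-Hochberg over every gene tested. The biological coefficient of variation was 4.92%. SE is the size of the log2 change divided by the root of F. CPM values were computed from the counts with library sizes multiplied by the TMM factors. The scripts were tested on simulated data. Alternatives were DESeq2 1.42.0, other scalings and filters, a fit on the compared groups only, a replicate block and leaving out each library.

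Named genes were the 12 largest rises and falls (mean log2 CPM of at least 2, groups not overlapping), the 6 largest each way in CPM per kb of exon, for each list the 3 called members of lowest p, or 2 for marker lists, a set of pathway genes, and 5 each way in the other comparisons. Further list members are named to describe their list, after their values were seen. Several of the genes ranked by CPM per kb are short RNA genes inside other genes and are left out as uncertain. The comparison, lists and rule were chosen with earlier results of these data known. Positions and exon sharing came from GENCODE M21, and promoters from RefSeq (GRCm38.p6) for 11604 of the tested genes. Some items are not reported here.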

Additional observations from a re-analysis of the deposited data

Results flagged for a closer look

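For some genes, 1 of the 4 libraries of a group stood apart from the other 3 by Dixon's criterion, which chance alone meets in about 1 in 20 groups. With vehicle, the library that stood apart was the lowest for Alb (0.0 CPM), Fgfr3 (49.38 CPM), Megf10 (38.07 CPM), Thbs2 (62.37 CPM), Tnfrsf22 (7.165 CPM), Mir6381 (277.6 CPM) and Gm27646 (56.41 CPM). It was the highest for Mbtps1 (161.9 CPM), Pgls (49.53 CPM), Ttr (0.05741 CPM) and Tubb2a (242.2 CPM). With insulin, it was the lowest for Gart (78.63 CPM), Hmgcs1 (1463.0 CPM) and Minar1 (8.141 CPM), and the highest for Mir5121 (278.6 CPM), Prdx6 (573.7 CPM), Scd2 (3701.0 CPM) and Tubb6 (96.13 CPM). Mir6381, Gm27646 and Mir5121 lie inside other genes, so their values are uncertain.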

How the results depend on the processing

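The counts of genes that rose and fell with insulin stayed within 1.5 times of 3798 and 3333 under each alternative: library size alone gave 3490 and 3590, a mean CPM of at least 1 gave 3401 and 3662, DESeq2 3570 and 3474, and leaving out 1 library 3229 to 3609 and 3002 to 3355. No change of a named gene reversed, but the excess of rises over falls did: falls were more numerous with library size alone, with a mean CPM of at least 1, without insulin replicate 3 (3229 and 3346) and without vehicle replicate 2 (3272 and 3335). Of the counts of rises and falls within gene lists, 1507 stayed within 1.5 times and 53 did not, all in lists and directions with at most 6 genes called. Vehicle and insulin libraries of the same replicate number had correlations of deviations of -0.032 to 0.03. A fit with the replicate number as a block gave 3789 and 3326. On the second principal component, with 11.4% of the variance, replicates 1 and 2 were positive and replicates 3 and 4 negative in both groups. Whether the numbers mark a shared culture or batch was not tested. The difference between genotypes gave 7 genes higher and 12 lower without the low-count filter, where the cause was not tested. Leaving out 1 library gave 0 to 1 higher (1 without IRflox vehicle replicate 1) and 0 to 4 lower (1 without IRKO insulin replicate 1, 4 without IRKO vehicle replicate 1). Insulin against IGF-1 gave 128 to 255 higher when 1 library was left out (155, 152 and 128 without IGF-1 replicates 1, 2 and 4, 136 without insulin replicate 2) and 106 to 199 lower (106 without insulin replicate 2); without the filter 296 were lower. Calls of single low or small changes, such as those of Gfap, Aqp4, Foxo1, Foxo6 and Ppargc1a, were lost under some alternatives. Tfeb passed the test only without vehicle replicate 4 (edgeR adjusted p = 0.013). Depth limits the genes near the count filter, among them the liver transcripts.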
